A study of Homo sapiens with 9 samples.

Results

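The genes described here are the cyclins, cyclin-dependent kinases and activating phosphatase that carry a cell through G1 and into S phase. They were chosen by gene symbol: the D cyclins CCND1, CCND2 and CCND3, the E cyclins CCNE1 and CCNE2, the A cyclin CCNA2, the kinases CDK2, CDK4 and CDK6, and the phosphatase CDC25A. All 10 genes had at least 1 named probe, 14 probes in all among the 47231 on the array, and 8 of the 10 were bright enough to be tested among 12498 genes. RNA came from BON-1, an established cell line from a human pancreatic neuroendocrine tumour, and was hybridised to Illumina HumanHT-12 v4 BeadChips, 1 sample per array. The cells carried the pLKO.1 lentiviral vector, either as a control or with 1 of 2 short hairpin RNAs against RABL6A, a product of the RAB-like GTPase gene RABL6. Each group (vector, shRNA 1, shRNA 2) held 3 arrays, from cells that were generated in 3 separate sets according to the labels. No source used here states the time between transduction and harvest, and all results rest on this 1 line. How far the sets were separate cultures is not stated, so p-values measure only the spread between these samples.

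In textbook outline, growth signals raise the D cyclins, which bind CDK4 or CDK6 and begin the phosphorylation of the retinoblastoma protein RB1. E2F factors are then freed and switch on the genes of cyclin E, cyclin A and the replication machinery. Cyclin E with CDK2 drives entry into S phase, cyclin A with CDK2 acts within it, and CDC25A removes the inhibitory phosphates that keep CDK2 off. Cyclin-dependent kinases are controlled largely through protein levels, partners and phosphorylation, none of which the arrays read. The comparison with vector bears on the study's question of how RABL6A acts on the G1 to S phase step.

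Promoter sequence was at hand for 6 of the 10 genes (CCND3, CCNE1, CCNA2, CDK4, CDK6 and CDC25A), from RefSeq on GRCh38.p14. The entries for CDC25A, CCNA2, CCNE1 and CDK4 are shown because the first 3 genes fell with RABL6 knockdown and CDK4 had the largest spread between knockdown arrays of these 6. CDK6 fell too, and its entries are not shown but are described after the sequences. Each is the 250 bases before the annotated start, 5′ to 3′ on the gene's strand, and capitals mark matches on either strand to an E2F motif, a CHR motif, a CCAAT box or an E-box.
CDC25A, chr3:48188418-48188667, minus strand: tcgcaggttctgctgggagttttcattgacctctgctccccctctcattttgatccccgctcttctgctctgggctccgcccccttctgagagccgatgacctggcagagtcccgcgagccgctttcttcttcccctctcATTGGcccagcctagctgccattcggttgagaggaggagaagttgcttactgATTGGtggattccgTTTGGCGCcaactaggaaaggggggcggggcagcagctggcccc
CCNA2, chr4:121823884-121824133, minus strand: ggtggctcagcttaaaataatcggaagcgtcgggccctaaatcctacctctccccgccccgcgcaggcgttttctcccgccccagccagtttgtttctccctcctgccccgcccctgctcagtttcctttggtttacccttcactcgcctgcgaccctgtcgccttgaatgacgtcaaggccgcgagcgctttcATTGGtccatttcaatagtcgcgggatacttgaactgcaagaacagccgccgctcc
CCNE1, chr19:29811741-29811990, plus strand: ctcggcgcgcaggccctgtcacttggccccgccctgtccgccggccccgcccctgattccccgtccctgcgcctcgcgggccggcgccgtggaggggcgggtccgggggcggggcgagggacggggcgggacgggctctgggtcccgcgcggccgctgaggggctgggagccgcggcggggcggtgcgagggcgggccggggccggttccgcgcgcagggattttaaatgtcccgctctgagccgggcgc
CDK4, chr12:57752311-57752560, minus strand: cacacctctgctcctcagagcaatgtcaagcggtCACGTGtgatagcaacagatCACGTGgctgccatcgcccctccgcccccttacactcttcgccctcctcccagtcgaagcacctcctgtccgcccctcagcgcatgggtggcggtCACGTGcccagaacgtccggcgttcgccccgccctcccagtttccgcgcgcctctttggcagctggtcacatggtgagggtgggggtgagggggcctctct
The letters searched were TTTCCCGC, TTTGGCGC, TTTGCCGC and TTTCGCGC for E2F, TTTGAA for CHR, CCAAT, and CACGTG for the E-box, which MYC family factors can bind. The matches in capitals did not overlap each other. CDC25A held 1 E2F match at -44 to -37 from the start, a match found in 2.79% of the 35116 human promoter windows of this length, and 2 CCAAT boxes, found in 32% of windows. CCNA2 held 1 CCAAT box, and CCNE1 held no match in capitals. Only these exact letters were searched, so a motif that differs from them would be missed. CDK4 held 3 E-boxes, at -216, -196 and -101, and 6.34% of windows held at least 1. The GC box GGGCGG, not capitalised, was present in all 4 sequences (7 matches in CCNE1, 3 each in CCNA2 and CDK4, 2 in CDC25A) and in 42.6% of windows. Neither of the 2 CDK6 entries and none of the 3 CCND3 entries held an E2F, CHR or E-box match, while CCAAT boxes were found in CCND3 entries. These matches are letters in a window and no binding was measured.

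The targeted gene and the array profiles bear on every value below. RABL6 changed by -1.99 in log2 signal (SE 0.19, limma adjusted p = 0.0014) and was below all vector arrays on 6 of 6 knockdown arrays. Its raw signals were 295, 341 and 334 with vector and 130 to 171 on knockdown arrays. The latter are near the array medians of 119 to 129, so the size of the change is less certain than its direction. Across genes, the library labelled shRNA 1 replicate 2 had a correlation of 0.994 with shRNA 2 replicate 1 and of 0.933 with replicate 1 of its own label. For the library labelled shRNA 2 replicate 2 the correlation was 0.995 with shRNA 1 replicate 1 and 0.933 with replicate 1 of its own label. Genes are not independent replicates, so these are descriptions. Groups follow the labels throughout, and changes are also given on 7 arrays, without both shRNA arrays numbered 2. Dropping these arrays makes each group more uniform by construction. Should the other 4 shRNA arrays be the mislabelled ones, what is given for shRNA 1 on 7 arrays would belong to shRNA 2, and the reverse. Of 10 neuroendocrine markers with a probe, 10 were detected on all 9 arrays. Their summed raw signals were 68242 to 70814 with vector, 51064 to 59956 with shRNA 1 and 49383 to 58809 with shRNA 2. With both shRNAs against vector, 3 of the 10 fell (limma adjusted p under 0.05): NKX2-2 at -2.09, SLC18A1 at -2.06 and INSM1 at -0.995. SCG5 at 1.53 and ENO2 at 0.62 rose, and 5 did not pass the test. Among these 5 were SCG2, CHGA and CHGB, which had the highest raw signals of the 10 and weigh most in the sums. Of 17 markers of fibroblasts, leukocytes and endothelial cells, 4 were detected on all 9 arrays. PTPRC, CD3E, PECAM1, CDH5, COL3A1 and LUM were detected on none. Summed raw signals of the 7 fibroblast markers were 816 to 885 over all arrays. For the 5 endothelial markers they were 628 to 637 with vector, 671 to 717 on shRNA 1 arrays and 630 to 703 on shRNA 2 arrays, and KDR, a VEGF receptor gene detected on 9 of 9 arrays, rose by 1.00 (SE 0.15, limma adjusted p = 0.00469). For the 5 leukocyte markers the sums on vector arrays were 1137 to 1224, against 1003 to 2663 for shRNA 1 and 1050 to 2454 for shRNA 2. Among them CD68 read up to 2106, while CD14 and LYZ read at most 158 and 162. The change of CD68, at 0.65 (SE 0.57), did not pass the test (limma adjusted p = 0.473). The part of these markers in the results was not tested.

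Among the D cyclins, CCND1 and CCND3 were bright on every array and did not pass the test in either direction, and CCND2 was at background. Levels here and below are log2 signals after background correction and quantile normalization, and they can be compared between arrays for 1 probe but not between probes. CCND1 read 12.33, 12.34 and 12.41 on vector arrays 1, 2 and 3, 12.15, 12.15 and 12.38 on shRNA 1 arrays, and 12.08, 12.09 and 12.31 on shRNA 2 arrays. The knockdown arrays lay below all vector arrays except shRNA 1 replicate 3, which lay among them. The change in level averaged over both shRNAs was -0.17 (SE 0.12, limma adjusted p = 0.355), with a 95% interval from -0.43 to 0.10, and on 7 arrays it was -0.13 (SE 0.11, adjusted p = 0.365).

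CCND3 read 10.98, 10.91 and 10.94 on the vector arrays, 11.21, 11.51 and 11.04 with shRNA 1, and 11.53, 11.10 and 11.19 with shRNA 2. All 6 knockdown arrays were above all 3 vector arrays, with the highest values on shRNA 1 replicate 2 and shRNA 2 replicate 1. The change of 0.32 (SE 0.15) did not pass the test (limma adjusted p = 0.174, 95% interval from -0.02 to 0.66), nor did it on 7 arrays, at 0.30 (SE 0.11, adjusted p = 0.0655). Scaling each array to its median in place of quantile normalization moved the median change of all genes from 0.03 to -0.08, and gave 0.16 for CCND3 and -0.29 for CCND1. CCND2 has 2 probes. One was detected (detection p under 0.05) on vector replicate 2 alone, at a raw signal of 141, and the other on none of the 9 arrays, so no change was computed.

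Of the kinases that the D cyclins bind, CDK6 fell, by a similar amount on every knockdown array. CDK4 did not pass the test and was far lower than vector on 3 of the 6 knockdown arrays and close to it on the other three. CDK6 read 10.66, 10.77 and 10.63 with vector (mean 10.69 ± 0.08, SD, n = 3), 9.83, 9.40 and 9.76 with shRNA 1, and 9.48, 9.80 and 9.85 on shRNA 2 arrays. The groups did not overlap, and the knockdown arrays lay within 0.45 of each other. CDK6 fell by 1.00 (SE 0.14, limma adjusted p = 0.00443), with a fold of 0.500, and by 1.02 (SE 0.17) with shRNA 1 and 0.97 (SE 0.17) with shRNA 2, comparisons that share the vector arrays (adjusted p = 0.0104 and 0.0139). The call held in all 22 alternative settings, with changes from -1.15 to -0.92, among them the 7 arrays at -0.96 (SE 0.12, adjusted p = 0.000621).

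CDK4 read 11.75, 11.84 and 11.84 with vector (mean 11.81 ± 0.06, SD, n = 3). With shRNA 1 it read 9.39, 11.52 and 9.70 on replicates 1, 2 and 3, and with shRNA 2 it read 11.55, 9.39 and 11.47. Every knockdown array was below every vector array, at -2.42, -2.11 and -2.42 from the vector mean on 3 of them and at -0.29, -0.26 and -0.34 on the others. In raw signal the probe read 757, 835 and 785 on the low arrays (shRNA 1 replicates 1 and 3, shRNA 2 replicate 2), 3185, 2932 and 2953 on the others, and 3569, 4048 and 3863 with vector. The low arrays were still well above the array medians of 119 to 129. The average change of -1.31 (SE 0.58) did not pass the test (limma adjusted p = 0.159), and the 95% interval ran from -2.63 to 0.01. On 7 arrays CDK4 was called, at -1.28 (SE 0.11, adjusted p = 0.000205), with -2.27 (SE 0.13) for shRNA 1 and -0.30 (SE 0.13, adjusted p = 0.106) for shRNA 2. Without shRNA 1 replicate 2 alone, an array where CDK4 was near vector, it was also called, at -1.64 (adjusted p = 0.0419). In all, CDK4 was called in 3 of 22 alternative settings, with limma adjusted p up to 0.334.

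**Figure D1:**
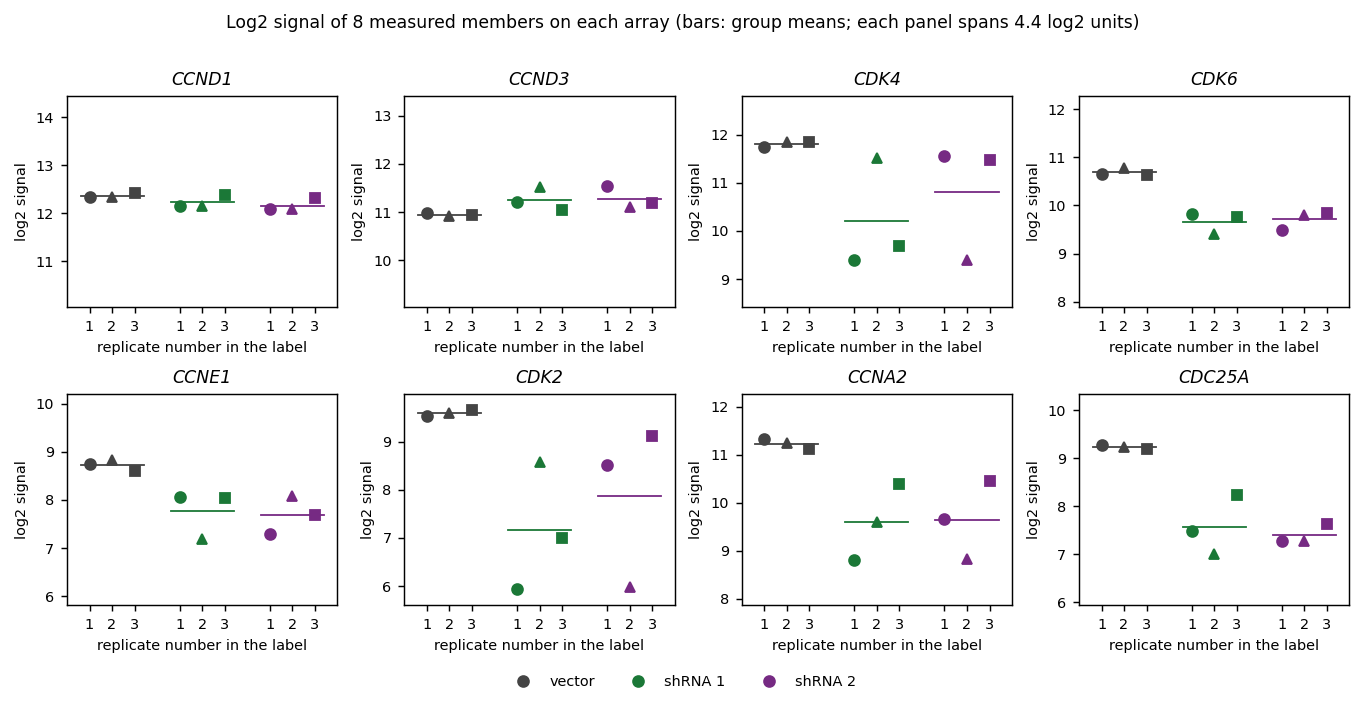
Log2 signal (vertical axis) of the 8 tested genes on each of the 9 arrays, by group and replicate number (horizontal axis), with bars at group means; every panel spans the same number of log2 units. CDK6 and CDC25A are lower on all 6 knockdown arrays, while CDK4 and CDK2 split within each labelled shRNA, with CDK4 at 9.39, 9.70 and 9.39 on 3 arrays and 11.47 to 11.55 on the others.

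Of the genes of cyclin E and its kinase, CCNE1 fell, CCNE2 was not detected, and CDK2 showed the same split between knockdown arrays as CDK4. CCNE1 read 8.74, 8.82 and 8.61 with vector (mean 8.72 ± 0.11, SD, n = 3), 8.07, 7.19 and 8.05 with shRNA 1, and 7.28, 8.09 and 7.68 with shRNA 2. All 6 knockdown arrays were below all vector arrays, and the lowest were shRNA 1 replicate 2 and shRNA 2 replicate 1, where CDK4 was near vector. CCNE1 fell by 1.00 (SE 0.24, limma adjusted p = 0.0257), with a fold of 0.501. The call was lost without any 1 of the 3 vector arrays, with changes from -1.05 to -0.95 and adjusted p from 0.0884 to 0.113. A change of -0.95 with shRNA 1 (adjusted p = 0.0614) and of -1.04 with shRNA 2 (adjusted p = 0.053) did not pass on 9 arrays, and on 7 arrays both did, at -0.66 and -1.24 (SE 0.15 each, adjusted p = 0.00688 and 0.000633). A further CCNE1 probe and the only CCNE2 probe were detected on 0 of 9 arrays, with raw signals from 106 to 129 and from 102 to 129.

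CDK2 was read by 2 kept probes. On the brighter one (ILMN_1665559), used in the test, it read 9.53, 9.60 and 9.66 with vector (mean 9.60 ± 0.07, SD, n = 3), 5.93, 8.58 and 7.01 with shRNA 1, and 8.51, 5.98 and 9.12 on shRNA 2 arrays. The 3 low arrays were those low for CDK4. Raw signals on them were 159, 212 and 164, close to the array medians, and the average change moved from -2.08 to -1.50 with no background correction. The change of -2.08 with correction (SE 0.73) did not pass the test (limma adjusted p = 0.0879, 95% interval from -3.74 to -0.41). On 7 arrays it was -1.95 (SE 0.25, adjusted p = 0.000753), with -3.13 (SE 0.30) for shRNA 1 and -0.78 (SE 0.30, adjusted p = 0.0725) for shRNA 2.

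The dimmer CDK2 probe (ILMN_1653443) was detected on 3 of 3 vector arrays, 0 of 3 shRNA 1 arrays and 1 of 3 shRNA 2 arrays, shRNA 2 replicate 1. On this probe CDK2 was at least 1.54-fold higher with vector than with shRNA 1, where the dim group was set per array to the lowest level of a detected probe or its own level if higher. Measured means were 5.58 with vector and 4.63 with shRNA 1. The probe met the filter on low signals through the vector arrays, where it was high, so these values are a description with no test. Both probes are annotated to the same RefSeq transcript of CDK2.

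**Figure D2:**
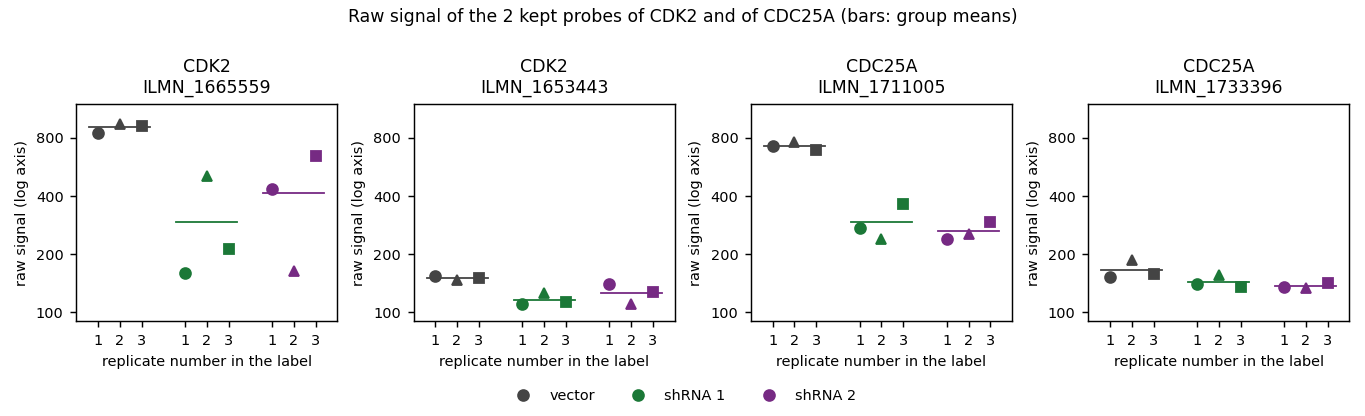
Raw signal (vertical log axis) of the 2 kept probes of CDK2 and of CDC25A on each array, by group and replicate number (horizontal axis), with bars at group means. The brighter CDK2 probe lies between 159 and 212 on 3 knockdown arrays, and the dimmer probes of both genes lie within 111 to 186.

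CCNA2 and CDC25A both fell. CCNA2 read 11.32, 11.25 and 11.12 with vector (mean 11.23 ± 0.10, SD, n = 3), 8.81, 9.59 and 10.40 with shRNA 1, and 9.66, 8.82 and 10.46 on shRNA 2 arrays. The groups did not overlap. Levels on the knockdown arrays came in near-equal pairs across the labelled shRNAs: shRNA 1 replicate 1 with shRNA 2 replicate 2, shRNA 1 replicate 2 with shRNA 2 replicate 1, and both arrays numbered 3, which were the highest. CCNA2 fell by 1.61 (SE 0.40, limma adjusted p = 0.0288), with a fold of 0.328. Changes of -1.63 with shRNA 1 (adjusted p = 0.0563) and of -1.58 with shRNA 2 (adjusted p = 0.0662) did not pass on 9 arrays. With both shRNAs, CCNA2 lost its call without vector replicate 1, 2 or 3 (adjusted p up to 0.111) and without shRNA 2 replicate 1 (0.0558). In bulk RNA, fewer cells in S phase or later and less CCNA2 RNA per cell cannot be told apart. On 7 arrays the fall was 1.40 (SE 0.35, adjusted p = 0.013). There shRNA 1 passed, at -1.63 (adjusted p = 0.0131), and shRNA 2 did not, at -1.17 (adjusted p = 0.0579).

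CDC25A read 9.26, 9.24 and 9.18 with vector (mean 9.23 ± 0.04, SD, n = 3), 7.49, 7.01 and 8.23 with shRNA 1, and 7.28, 7.28 and 7.63 on shRNA 2 arrays. The groups did not overlap, and the knockdown array nearest to vector was shRNA 1 replicate 3. CDC25A fell by 1.74 (SE 0.24, limma adjusted p = 0.00387), with a fold of 0.299, with changes of -1.65 for shRNA 1 and -1.83 for shRNA 2 (SE 0.28 each, adjusted p = 0.012 and 0.00998). The call held in all 22 alternative settings, with changes from -1.91 to -1.14, the smallest with the mean of its 2 probes, and -1.57 (SE 0.18, adjusted p = 0.000481) on 7 arrays. The dimmer probe (ILMN_1733396), detected on 9 of 9 arrays, fell by 0.55 (SE 0.15, adjusted p = 0.0441 over all kept probes).

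In all, 4 of the 8 tested genes fell with both shRNAs against vector (CCNE1, CCNA2, CDK6 and CDC25A) and 0 rose, where 16.6% of all tested genes were called, 8.09% as lower and 8.54% as higher. Without any 1 of the 3 vector arrays the count was 2, and calls over all tested genes were also fewer (counts near the end). On 7 arrays 6 fell and 0 rose, CDK2 and CDK4 being added, where 20.5% of all tested genes fell and 20.7% rose. The median change of the 8 was -1.15 on 9 arrays and -1.12 on 7, against 0.03 over all tested genes on 9. Groups did not overlap for 7 of the 8, with 6 below vector and CCND3 above, where 14.2% of all genes lay below, 15% above and 29.2% on either side.

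Each shRNA was also set against vector by itself, and both comparisons share the vector arrays. For shRNA 1 CDK6 and CDC25A fell and 0 rose, where 11.2% of all genes were called (5.56% lower, 5.6% higher). For shRNA 2 the same pair fell and 0 rose, where 8.65% were called (4.06% lower, 4.58% higher). Without any 1 vector array 0 of the 8 were called by limma in either comparison. Shares over all genes in those fits are not given here. With both shRNAs against vector, leaving out a vector array also lowered the calls over all genes. The 0 is thus not a result about these 8. On 7 arrays 6 fell for shRNA 1 and 0 rose, where 43.9% were called (20.5% lower, 23.4% higher), and CCND1 and CCND3 were the genes not called. For shRNA 2 on 7 arrays CCNE1, CDK6 and CDC25A fell and CCND3 rose, by 0.42 (SE 0.14, adjusted p = 0.0438), where 35.3% were called (18.1% lower, 17.3% higher). The 10 genes were chosen with earlier results of these data known, so all these counts are descriptions.

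The knockdown arrays differed most among themselves in CDK2, CDK4 and CCNA2, of the 8 tested. The SD over the 6 knockdown arrays was 1.40 for CDK2 and 1.11 for CDK4, larger than in 99.3% and 97.9% of tested genes, and 0.72 for CCNA2, larger than in 91%. It was 0.20 for CDK6, larger than in 25.7%, and the median over all tested genes was 0.29. Over the 3 vector arrays the SD was 0.07 for CDK2 and 0.06 for CDK4, against a median of 0.11.

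The labelled shRNAs were then set against each other. On 9 arrays limma called 0 of the 8 genes, and 0 had an unadjusted p under 0.05, as 0.768% of all genes did, with 0% called. The difference, shRNA 2 minus shRNA 1, was 0.70 for CDK2 with a 95% interval from -1.22 to 2.62, and 0.60 for CDK4 with an interval from -0.92 to 2.13. Each labelled shRNA group held both high and low arrays of these kinases. For CDK6 the difference was 0.05 with an interval from -0.33 to 0.43. On 7 arrays 3 genes were called, where 41.2% of all genes were (19.3% higher, 21.9% lower with shRNA 2): CDK2 at 2.35 (SE 0.32, adjusted p = 0.000869), CDK4 at 1.97 (SE 0.14, adjusted p = 5.35e-05) and CCNE1 at -0.58 (SE 0.16, adjusted p = 0.0202). The arrays left out were picked by their likeness to the other label in these same data. That choice makes each shRNA group more uniform and sets the groups apart by construction, so the calls on 7 arrays are descriptions. On those arrays CCNE1 lay lower in the shRNA group in which CDK2 and CDK4 lay higher. CDK6 was not called there, at -0.13 (SE 0.15, adjusted p = 0.531).

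**Figure D3:**
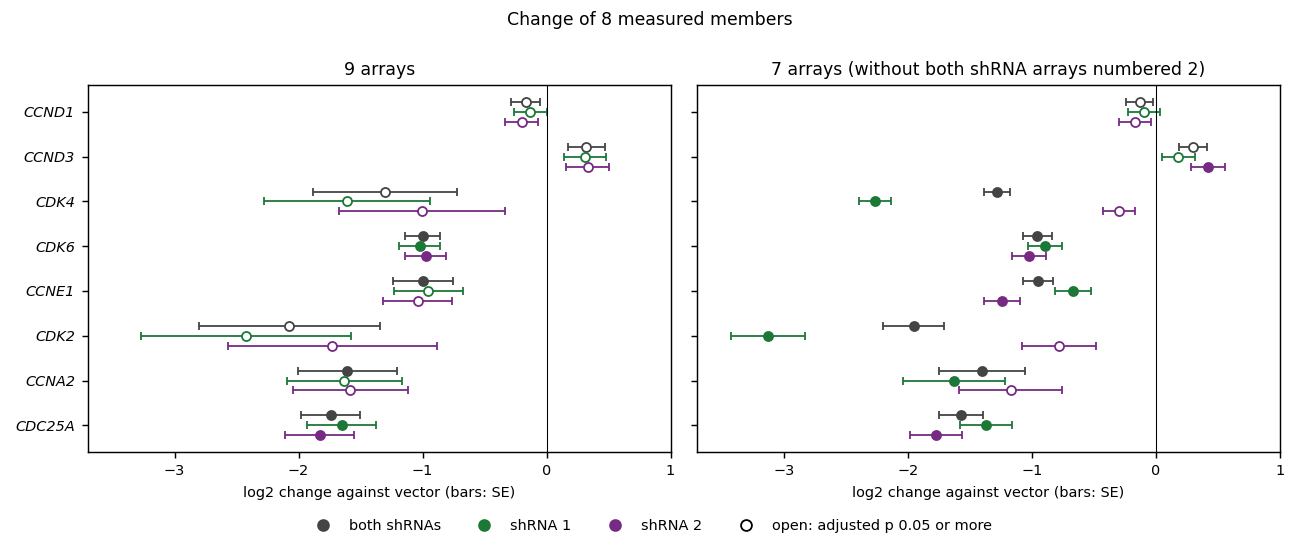
Log2 change against vector (horizontal axis; bars, SE) of the 8 tested genes (vertical axis) for both shRNAs together and each shRNA, on 9 arrays (left) and 7 arrays (right), with filled points at an adjusted p under 0.05. On 7 arrays CDK4 lies at -2.27 for shRNA 1 and -0.30 for shRNA 2, while CDK6 lies at -0.89 and -1.02.

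The rest of the pathway was read from lists chosen with earlier results of these data known, so their counts are descriptions beside the shares of all genes. Over all tested genes 8.09% fell and 8.54% rose on 9 arrays, and 20.5% fell and 20.7% rose on 7 arrays. Counts are on 9 arrays unless 7 are named. In the RB family and E2F list, 4 of 13 tested genes fell and 0 rose, with a median of -0.56: E2F2, an activating E2F, at -2.16 (SE 0.29), E2F8, a repressive E2F, at -1.06 (SE 0.21, detected on 6 of 9 arrays), RBL1, the pocket protein p107, at -0.81 (SE 0.19), and RB1 at -0.59 (SE 0.16). Of 29 E2F target genes of S phase, 16 fell and 0 rose, with a median of -1.18. Among the genes called, the largest falls were those of CDC45, part of the replicative helicase, at -2.73 (SE 0.51), POLD1, the catalytic subunit of DNA polymerase delta, at -1.89 (SE 0.40), MCM5, a helicase ring subunit, at -1.55 (SE 0.34), and GINS2, another helicase component, at -1.54 (SE 0.28). RRM2, a ribonucleotide reductase subunit, at -2.24 (SE 0.76, adjusted p = 0.0778) and FEN1, the flap endonuclease, at -1.67 (SE 0.59, adjusted p = 0.0873) did not pass limma's test, and these genes, like KDR above, were chosen after their values were seen. On 7 arrays 9 of the 13 and 26 of the 29 fell, and 1 and 0 rose.

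The list of CDK regulators also held genes that act mainly in mitosis. Of its 26 tested genes, 8 fell and 2 rose, with a median of -0.24, where 8.09% of all genes fell and 8.54% rose. Falling were CKS1B, a small CDK subunit, at -1.68 (SE 0.37), PKMYT1, an inhibitory kinase acting on CDK1, at -1.62 (SE 0.28), CDC25C, a mitotic relative of CDC25A, at -1.52 (SE 0.39), and FBXO5, an inhibitor of the anaphase-promoting complex, at -1.46 (SE 0.38), with 4 others. Rising were CABLES1, a CDK-binding adaptor, at 0.80 (SE 0.20), and CDKN1B, the CDK2 inhibitor p27, at 0.70 (SE 0.15). On 7 arrays 10 fell and 4 rose.

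Of 26 other cyclins and CDKs tested, 2 fell and 2 rose, with a median of -0.12, where 8.09% of all genes fell and 8.54% rose, so the count is near the share over all genes. CCNF, cyclin F of an SCF ubiquitin ligase, fell by 1.28 (SE 0.21), and CDK19, a Mediator kinase, fell by 0.66 (SE 0.17). CDK14, a kinase of the PFTAIRE group, rose by 0.77 (SE 0.16), and CDK5, a kinase best known from neurons, rose by 0.63 (SE 0.17). On 7 arrays 4 fell and 5 rose.

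**Figure D4:**
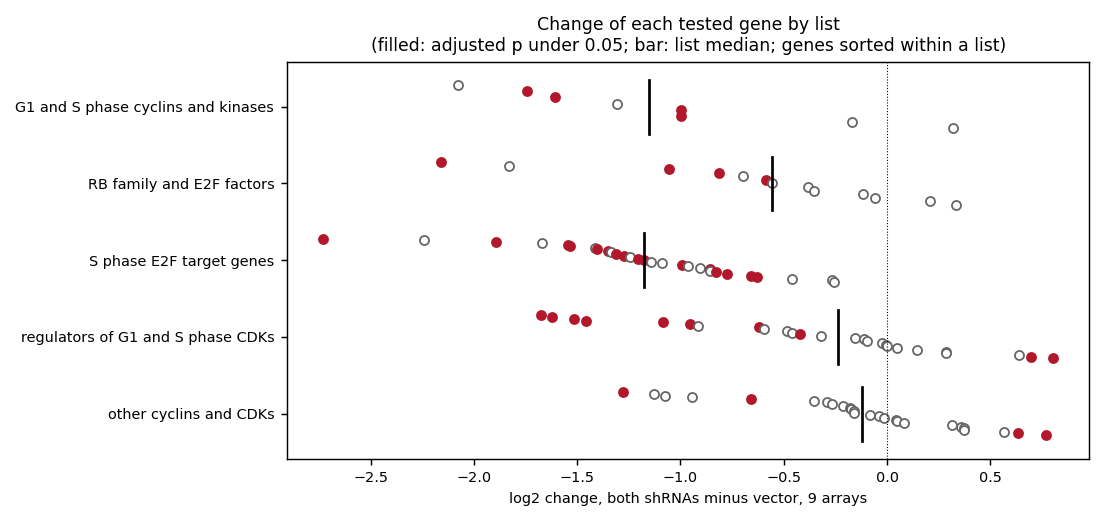
Log2 change with both shRNAs against vector on 9 arrays (horizontal axis) of each tested gene in the 5 lists (vertical axis), with filled points at an adjusted p under 0.05 and a bar at the list median. In this fit all 29 S phase E2F target genes lie below 0, while the other cyclins and CDKs are spread around it with a median of -0.12.

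The genes most like each called member were taken by Pearson correlation over the 9 arrays, among all tested genes outside the 10, as a description. Vector and knockdown arrays form separate groups, so the correlation over the 6 knockdown arrays is given too. For CCNA2 they were KIF20A, DLGAP5 and CDCA8, all genes of mitosis, at 0.994 to 0.995 (0.992 to 0.997 over the 6). For CCNE1 they were the kinase gene CSK, the origin recognition gene ORC5 and SAMM50 at 0.989 to 0.995 (0.976 to 0.995). CDK6 was most like SP8, PATL1 and NDUFB7 at 0.991 each (0.943 to 0.976), and CDC25A was most like VDAC3, RCOR2 and the chromatin assembly gene CHAF1A at 0.989 to 0.990 (0.924 to 0.958).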

How the data were processed

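Total RNA of 9 samples was read on 1-colour Illumina HumanHT-12 v4 arrays, and groups were taken from the sample descriptions. Per the file headers, the deposited signal intensity of 47231 probes was not normalized, and each deposited detection p-value compares a probe with negative controls. The submitters' processing notes name GenomeStudio without a version. The authors' value table holds intensity for 47219 probes on a linear scale, with column medians from 7.93 to 7.96, values below 0, and the same probe order as the scanner signals of the same arrays (rank correlation 1). Its lowest value (-23.9) and highest value (26421.8) are the same on all 9 arrays, as they are after quantile normalization. Its background and normalization steps are otherwise unknown here.

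The signals were background-corrected (nec, offset 16), quantile normalized and log2 transformed with limma 3.58.1 in R 4.3.3. A probe was kept where its detection p was under 0.05 on 3 or more arrays (22011 probes, 16744 of them with 1 gene symbol), and a gene with several was read from the brightest on average. The platform annotation gave 30108 probes 1 symbol and 8 probes several, and did not list 17115. Per array, 19565 to 21201 probes were detected. The small number of arrays limits precision.

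Group means were fitted over all 9 arrays (lmFit, eBayes), p-values were adjusted by Benjamini-Hochberg over the 12498 genes, and calls were made under 0.05. The procedure was tested on simulated data. Named were the 10 genes, RABL6, up to 4 called genes per direction of each list, and the 3 genes most like each called member. Members, lists and the fit on 7 arrays were chosen with earlier results of these data known. Alternatives covered background, normalization, filters, probe choice, variance model, the authors' value table, array weights, a replicate block, only the groups compared, and arrays left out.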

Additional observations from a re-analysis of the deposited data

How the results depend on the processing

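With both shRNAs against vector, the direction of each of the 8 tested genes was the same in every alternative run. CDK6 and CDC25A kept their calls in all 22, CCNE1 and CCNA2 in 18 each, and CDK2 and CDK4 were called in 3 (7 arrays, array weights, and without shRNA 1 replicate 2). The number of the 8 called was 4 and ranged from 2 to 6 when 1 array was left out. Over all genes 2078 were called, 5588 with array weights, 5151 on 7 arrays, 1106 with the replicate block, and 489 to 2583 with 1 array left out (550, 489 and 509 without vector replicates 1, 2 and 3). Median centring gave 613 higher and 1432 lower calls in place of 1067 and 1011, and cyclic loess 981 and 1138.

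For shRNA 1 against vector 2 were called, 4 with median centring, cyclic loess or only the groups compared, 6 with array weights or on 7 arrays, and 0 to 5 with 1 array left out. For shRNA 2 these were 2, 4 with median centring, array weights or on 7 arrays, 1 with the replicate block, and 0 to 3. For shRNA 2 minus shRNA 1 limma called 0 (0 at an unadjusted p under 0.05), 2 with array weights, 3 on 7 arrays, and 0 with any 1 array left out. For these comparisons, shares over all genes are given above only for the main setting and on 7 arrays. With both shRNAs against vector, array weights raised the calls over all genes from 2078 to 5588. The counts in the other settings thus have no share to set beside them and are not results about the listed genes. Between shRNAs the uncalled CDK6 difference reversed to -0.018 with array weights and -0.13 on 7 arrays. With 1 array left out the uncalled differences ranged from -0.083 to 0.16 for CDK6, -0.15 to 0.0073 for CCND1, -0.11 to 0.15 for CCND3, -0.37 to 0.11 for CCNE1, -0.36 to 0.46 for CCNA2 and -0.46 to 0.15 for CDC25A. The cause of these moves was not tested, and the smaller fits also hold fewer samples.

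Deviations of same-numbered arrays from their group means correlated at -0.89 to 0.15, above 0.1 in 1 of 9 pairs. The negative values were all between shRNA 1 and shRNA 2 arrays, where those numbered 2 resembled the other label. Between vector and knockdown arrays the values were small, at 0.028 to 0.153 for the same number and -0.08 to -0.0058 for different numbers. How far the replicate numbers pair the samples was thus not settled. With the replicate block, both shRNAs against vector gave 3 called (CCNE1 at adjusted p = 0.0796 was lost) and 1106 genes. Array position on the chip was not run as a block, since the headers give none, and fitting only the groups compared changes nothing where all groups enter. Low signal limits CCND2 and CCNE2, for which no change could be measured, and CDK2 on the 3 knockdown arrays where it was near background. The size of the RABL6 change is limited by low signal too.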
